A study of Mus musculus with 6 samples.

Results

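The genes described here are 9 components of the scaffold that holds the muscle sarcomere together: titin (*Ttn*) and nebulin (*Neb*), the Z-disc genes *Actn2*, *Actn3*, *Myoz1* and *Ldb3*, the M-band genes *Myom1* and *Myom2*, and the intermediate filament gene *Des*. They were taken by gene name from a deposited table of 55416 genes, in which each of the 9 names stood once, and 8 of the 9 averaged 1 TPM or more over the 6 libraries. TPM is a level per unit of transcript length, scaled so that every library has nearly the same total, so genes can be compared with each other, but how many reads a level rests on cannot be read from it. RNA came from satellite cells (SCs), the stem cells of skeletal muscle, of WT mice (3 libraries) and of *Ltf*-KO mice (3 libraries), which lack lactoferrin in every tissue through a CRISPR-Cas9 deletion of early coding exons of *Ltf* made in C57/BL6N zygotes. The study's mice were 8 to 10 weeks old where it does not say otherwise. Cells of both genotypes were sorted from collagenase-digested hind leg muscle as Sca1-, CD11b-, CD34+ and α7-integrin+, and harvested on day 4 of culture on Matrigel in serum-rich growth medium with basic fibroblast growth factor and without any treatment. The labels do not say how many animals gave each library or whether the replicates were separate animals, so p-values measure the spread between these libraries, which may be technical.

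The libraries held the RNA of myogenic cells. Summed over 9 SC markers, which include *Myod1*, *Chrna1*, *Itga7* and *Pax7*, the level was 2049 to 2100.1 TPM in WT and 2068 to 2097 TPM in *Ltf*-KO SCs. Most of this sum came from *Myod1*, *Chrna1* (508 to 526 TPM) and *Itga7* (371 to 416 TPM). *Pax7* was at 36.6 to 43.3 TPM and *Cd34* at 4.41 to 6.2 TPM. *Myod1*, a transcription factor of activated SCs, was at 748 to 816 TPM, and *Myog*, a transcription factor of myoblasts that leave the cell cycle and begin to differentiate, was at 266 to 508 TPM. The 6 macrophage markers summed to 4.46 to 11.5 TPM in WT and 3.59 to 4.69 TPM in *Ltf*-KO, and the 6 endothelial markers to 7.31 to 17.7 and 7.30 to 15.05 TPM. The 8 cardiomyocyte markers summed to 341 to 405 TPM in WT and 351 to 421 TPM in *Ltf*-KO, nearly all from the troponin gene *Tnnt2* at 340 to 420 TPM, while *Gata4* and *Tnni3* reached 1.17 TPM each and *Myh6*, *Nppa*, *Myl7*, *Nkx2-5* and *Ryr2* stayed at 0.35 TPM or less. *Ltf* itself was listed at 0.12, 0.02 and 0.02 TPM in WT and at 0.02, 0.03 and 0 TPM in *Ltf*-KO, near 0 in both genotypes, so its level does not check the labels. Bulk RNA cannot tell fewer differentiating cells from less sarcomere RNA per cell.

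A sarcomere is bounded by Z-discs, where α-actinin cross-links the thin actin filaments of neighbouring sarcomeres, and has the M-band at its middle, where myomesins cross-link the thick myosin filaments. Titin is a giant elastic protein that spans from Z-disc to M-band, nebulin runs along the thin filament, and desmin filaments tie neighbouring Z-discs to each other and to the cell membrane. Proliferating SCs and myoblasts have few or no sarcomeres. Desmin appears early in the lineage, and most of the other proteins are made as myoblasts differentiate and fuse into myotubes.

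The upstream sequences of the genes are shown because many muscle genes are switched on in myogenesis by MyoD-family factors, which bind E-boxes. MEF2 and serum response factor, which bind the MEF2 and CArG boxes, act with them. Windows were matched by symbol for 5 of the 9 genes in a RefSeq table of GRCm38.p6, and the 250 bases before the annotated start are printed in transcript direction, with every match to the E-box (CANNTG), the MEF2 box, the CArG box, the MCAT motif of TEAD factors (CATTCC) or TATAAA in capitals, searched on both strands apart from TATAAA. No match overlaps another in these windows. The windows are chr2:76982548-76982797 (minus strand) for *Ttn*, chr13:12340733-12340982 (minus) for *Actn2*, chr14:34588682-34588931 (minus) for *Ldb3*, chr17:71019307-71019556 (plus) for *Myom1* and chr1:75360042-75360291 (plus) for *Des*.
Ttn: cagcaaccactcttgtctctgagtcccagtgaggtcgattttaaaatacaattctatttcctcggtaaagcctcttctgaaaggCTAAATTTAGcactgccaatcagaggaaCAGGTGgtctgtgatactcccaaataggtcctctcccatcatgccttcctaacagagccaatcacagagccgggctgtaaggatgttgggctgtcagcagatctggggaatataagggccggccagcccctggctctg
Actn2: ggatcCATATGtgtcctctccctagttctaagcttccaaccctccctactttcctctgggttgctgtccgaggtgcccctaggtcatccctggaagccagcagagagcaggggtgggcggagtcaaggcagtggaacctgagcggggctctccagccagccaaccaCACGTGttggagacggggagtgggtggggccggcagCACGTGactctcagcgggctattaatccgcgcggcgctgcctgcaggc
Ldb3: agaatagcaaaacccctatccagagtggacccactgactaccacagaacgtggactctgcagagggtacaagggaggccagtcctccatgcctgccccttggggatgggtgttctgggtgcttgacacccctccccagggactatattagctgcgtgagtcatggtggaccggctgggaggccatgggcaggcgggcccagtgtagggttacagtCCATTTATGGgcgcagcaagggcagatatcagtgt
Myom1: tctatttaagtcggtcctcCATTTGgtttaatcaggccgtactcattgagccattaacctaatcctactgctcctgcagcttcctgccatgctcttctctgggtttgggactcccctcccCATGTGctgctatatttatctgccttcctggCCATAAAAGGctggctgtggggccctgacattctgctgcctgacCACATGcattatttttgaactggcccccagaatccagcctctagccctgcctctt
Des: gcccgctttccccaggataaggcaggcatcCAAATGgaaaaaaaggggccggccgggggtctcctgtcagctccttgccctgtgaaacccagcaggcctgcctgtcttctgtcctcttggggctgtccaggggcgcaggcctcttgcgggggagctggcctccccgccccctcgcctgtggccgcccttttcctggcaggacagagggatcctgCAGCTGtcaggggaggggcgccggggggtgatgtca

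The *Ttn* window held a MEF2 box (CTAAATTTAG) from 166 bases before the start and an E-box (CAGGTG) from 138 bases before it. *Ldb3* and *Myom1* each held a CArG box, CCATTTATGG from 35 bases before the start of *Ldb3* shown (109 bases before a second annotated start of *Ldb3*, whose window is not printed) and CCATAAAAGG from 99 bases before that of *Myom1*. *Actn2* and *Myom1* held 3 E-boxes each and *Des* held 2, of which CAGCTG began 36 bases before the start. Over all 32851 windows of this length in the table, 66.2% held an E-box, 2.92% a MEF2 box and 1.47% a CArG box, so most such windows hold an E-box. MCAT, present in 12.6% of all windows, and TATAAA, present in 7.59%, were not found in these 5. These are matches of letters and not measured binding sites.

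Titin and nebulin are the giant filament proteins, and per length *Neb* was at a higher level than *Ttn* in all 6 libraries. *Ttn* (ENSMUSG00000051747) was at 32.6, 41.8 and 32.3 TPM in WT replicates 1 to 3 and at 39.8, 36.1 and 45.4 TPM in *Ltf*-KO replicates 1 to 3. *Neb* (ENSMUSG00000026950) was at 86.6, 103 and 83.8 TPM in WT and at 103, 88.7 and 108 TPM in *Ltf*-KO. In both genes WT replicate 2, *Ltf*-KO replicate 1 and *Ltf*-KO replicate 3 were the 3 highest libraries, and the genotypes overlapped. The longest *Ttn* transcript in GENCODE M21, Ttn-203, has 106824 bases in 347 exons, and that of *Neb*, Neb-202, has 22489 bases in 157 exons. Multiplied by these lengths, *Ttn* made up 50.8% of the summed signal of the 9 genes, against 5.42% of their summed TPM, so a low TPM of *Ttn* can rest on many reads. The isoforms present in these cells are unknown, and the lengths used by the authors are not given in the sources used here.

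At the Z-disc, the α-actinins *Actn2* and *Actn3*, which cross-link actin, differed in level. *Actn3* (ENSMUSG00000006457) was at 38.9, 48.8 and 36.5 TPM in WT and at 45.8, 38.4 and 54.1 TPM in *Ltf*-KO. *Actn2* (ENSMUSG00000052374) was at 15.1, 16.3 and 8.62 TPM in WT and at 14.5, 11.8 and 19.01 TPM in *Ltf*-KO. WT replicate 3 was the lowest and *Ltf*-KO replicate 3 the highest library for both. The coding sequences are related, yet 0.067% of the 50-base windows of the longest *Actn2* transcript and 0.0705% of those of *Actn3* occur in the other gene or any further gene. *Ldb3* (ENSMUSG00000021798), which encodes the PDZ and LIM protein Cypher (also called ZASP) that binds α-actinin, was at 12.98, 19.6 and 10.1 TPM in WT and at 14.3, 13.3 and 20.9 TPM in *Ltf*-KO, with the same lowest and highest libraries. *Myoz1* (ENSMUSG00000068697), which encodes the calcineurin-binding calsarcin of fast fibres, was at 0.17, 1.07 and 2.27 TPM in WT and at 0.86, 0.61 and 0.67 TPM in *Ltf*-KO. It was the gene nearest to 0 and the one whose WT libraries were farthest apart, with WT replicate 1 lowest and WT replicate 3 highest.

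At the M-band, *Myom2* was above *Myom1* in all 6 libraries. *Myom1* (ENSMUSG00000024049), which encodes the myomesin found in all striated muscle, was at 5.36, 9.62 and 5.79 TPM in WT and at 6.89, 4.69 and 7.92 TPM in *Ltf*-KO. *Myom2* (ENSMUSG00000031461), which encodes M-protein, typical of fast fibres, was at 9.69, 16.5 and 11.5 TPM in WT and at 15.3, 12.6 and 17.7 TPM in *Ltf*-KO. WT replicate 2 was the highest library for *Myom1* and *Ltf*-KO replicate 3 for *Myom2*. In GENCODE M21, *Myom1* lies opposite *Myl12a*, which was at 808 to 871 TPM, but their exons share 207 bases, all in 1 of the 9 *Myom1* transcripts. *Des* (ENSMUSG00000026208), the muscle intermediate filament gene, was at 446, 503 and 457 TPM in WT and at 465, 456 and 511 TPM in *Ltf*-KO, and it moved least between libraries, with its highest value 1.14 times its lowest.

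From highest to lowest mean TPM per length over the 6 libraries, the order was *Des* (473), *Neb* (95.5), *Actn3* (43.8), *Ttn* (38.0), *Ldb3* (15.2), *Actn2* (14.2), *Myom2* (13.9), *Myom1* (6.71) and *Myoz1* (0.942). Neighbours kept this order in 6 of 6 libraries except among the middle 3, where *Ldb3* exceeded *Actn2* in 4 and *Actn2* exceeded *Myom2* in 2 of 6 libraries, so the levels of these 3 did not separate beyond their spread.

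**Figure D1:**
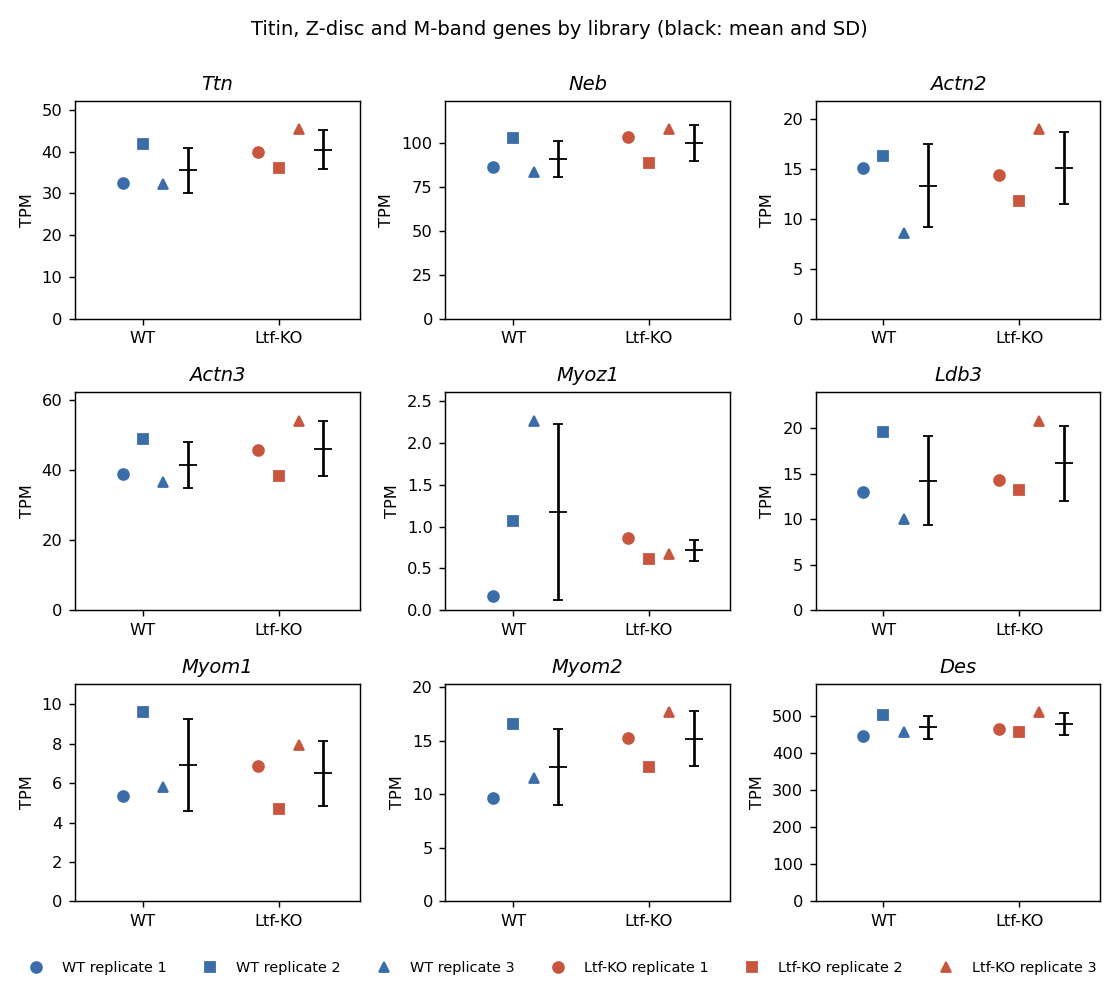
TPM of the 9 genes in each library, on linear axes from 0, with WT in blue and Ltf-KO in red, replicates 1 to 3 as circle, square and triangle, and the mean and SD (n = 3) of each genotype in black. The genotypes overlap in all 9 panels, and WT replicate 2 and Ltf-KO replicate 3 are the 2 highest libraries for 7 of the 9 genes, all but Neb and Myoz1.

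*Ltf*-KO was compared with WT to see whether loss of lactoferrin went with a different level of sarcomere scaffold RNA in SCs on day 4 of culture. None of the 8 genes that could be tested passed the test: by limma on log2(TPM + 1), fitted on the 12956 genes that averaged 1 TPM or more, 0 of the 8 had an adjusted p under 0.05 and 0 had an unadjusted p under 0.05. Over all genes tested, 0% had an adjusted p under 0.05 and 3.78% (490 genes) an unadjusted p under 0.05, of which 2.01% of all genes were higher and 1.78% lower in *Ltf*-KO. The difference was above 0 in 7 of the 8, where 55.7% of all genes tested were above 0, and its median over the 8 was 0.17 on the log2 scale, against 0.011 over all genes tested. Without *Ltf*-KO replicate 3 the difference was above 0 in 6 of the 8 and the median was 0.02, and without WT replicate 3 these were 5 of the 8 and 0.04. The genotypes overlapped for all 9 genes, where they did not overlap for 8.46% of all genes tested, 4.73% with *Ltf*-KO higher and 3.73% with *Ltf*-KO lower. The difference between genotype means was smaller than the pooled SD of the replicates for each of the 9, at between 0.209 and 0.971 times that SD.

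*Ttn* averaged 35.5 ± 5.40 TPM in WT against 40.4 ± 4.66 TPM in *Ltf*-KO (SD, n = 3 each), a log2 difference of 0.19 (SE 0.12, limma adjusted p = 0.999). *Neb* was at 91.05 ± 10.3 TPM in WT and 100.05 ± 10.1 TPM in *Ltf*-KO (SD, n = 3 each), a log2 difference of 0.14. The 95% interval of the *Ttn* difference ran from -0.11 to 0.48, which is 0.925-fold to 1.40-fold, and that of *Neb* from -0.11 to 0.38, which is 0.926-fold to 1.30-fold. Differences within these intervals, 0 among them, were not excluded.

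*Actn2* and *Actn3* had log2 differences of 0.19 (95% interval -0.43 to 0.81) and 0.15 (-0.21 to 0.51). *Ldb3* had a log2 difference of 0.19 (-0.43 to 0.81), from 14.2 ± 4.90 TPM in WT to 16.1 ± 4.12 TPM in *Ltf*-KO (SD, n = 3 each). For *Actn2* and *Ldb3* the sign rested on WT replicate 3, without which their differences were -0.076 and -0.012. *Myoz1* had a mean under 1 TPM and was left out of this fit, and with no filter on low values it did not pass the test either (limma adjusted p = 0.957). Its mean was 1.17 ± 1.05 TPM in WT and 0.713 ± 0.131 TPM in *Ltf*-KO (SD, n = 3 each), and its log2 difference of -0.22 was 0.14 without WT replicate 3.

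*Myom2* had the largest log2 difference of the 8, 0.27 (SE 0.20, limma adjusted p = 0.999), from 12.6 ± 3.54 TPM in WT to 15.2 ± 2.56 TPM in *Ltf*-KO (SD, n = 3 each). *Myom1* was the 1 tested gene with a difference below 0, at -0.07 (95% interval -0.65 to 0.52), a sign that turned when WT replicate 2 was left out (0.17) and likewise for *Ltf*-KO replicate 2 (0.12). *Des* was at 469 ± 29.9 TPM in WT and 477 ± 29.4 TPM in *Ltf*-KO (SD, n = 3 each), a log2 difference of 0.03. Its 95% interval was the narrowest of the 8, from -0.12 to 0.17, which is 0.918-fold to 1.13-fold.

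**Figure D2:**
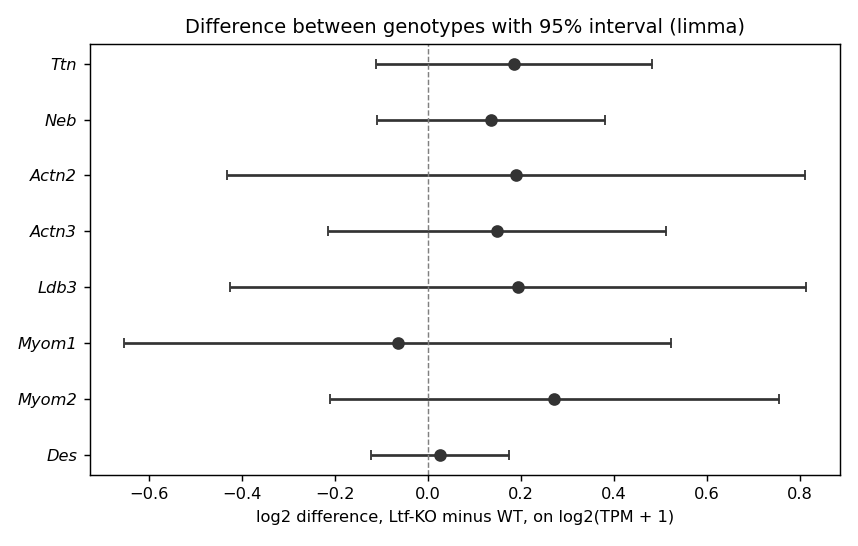
Log2 difference of Ltf-KO minus WT on log2(TPM + 1) for the 8 tested genes, as points with 95% intervals from limma (n = 3 libraries per genotype). Each of the 8 intervals spans 0, and the narrowest, of Des, runs from -0.12 to 0.17.

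The 8 tested genes differed more between libraries of the same genotype than most genes of their level did. The pooled coefficient of variation within genotypes was 27.4% for *Actn2*, 29.8% for *Ldb3*, 22.3% for *Myom2*, 16.5% for *Actn3*, 13.3% for *Ttn* and 10.7% for *Neb*, where the median of the 6681 tested genes of 10 to 100 TPM was 6.29%. It was 30.2% for *Myom1*, against a median of 15.8% from 1 to 10 TPM, and 6.27% for *Des*, against 3.80% at 100 TPM or more. In their class of level these genes ranked between the 78.8th and the 97.98th percentile. Among the 18 tested contractile and fusion genes described below, the coefficient ran from 10.9% (*Mb*) to 35.7% (*Mymx*). A wide spread was therefore not particular to the scaffold genes. This is a description of 6 libraries and carries no test.

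Most of the genes moved together from library to library, and the order cut across the genotypes. *Myoz1* did not follow, with WT replicate 3 as its highest library. *Ltf*-KO replicate 3 was the highest library for 7 of the 9 genes, where it was the highest for 17.0% of all genes tested. WT replicate 3 was the lowest for 5 of the 9 and WT replicate 1 for 3, where they were the lowest for 16.4% and 19.3% of all genes tested. The 3 highest libraries were WT replicate 2, *Ltf*-KO replicate 1 and *Ltf*-KO replicate 3 for *Ttn*, *Neb*, *Actn3*, *Ldb3*, *Myom1*, *Myom2* and *Des*. Summed over the 9 genes, the level was 648, 759 and 648 TPM in WT and 706, 662 and 784 TPM in *Ltf*-KO, a sum to which *Des* contributed most. The 19 contractile and fusion genes described below summed to 4048, 5148 and 3748 TPM in WT and 4388, 3914 and 6028 TPM in *Ltf*-KO. Their 3 highest libraries were the same, so this order was not particular to the scaffold genes. With each gene set relative to its own mean, the mean of the 8 tested genes was -0.16, 0.24 and -0.27 on the log2 scale in WT replicates 1 to 3 and 0.06, -0.16 and 0.30 in *Ltf*-KO replicates 1 to 3.

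**Figure D3:**
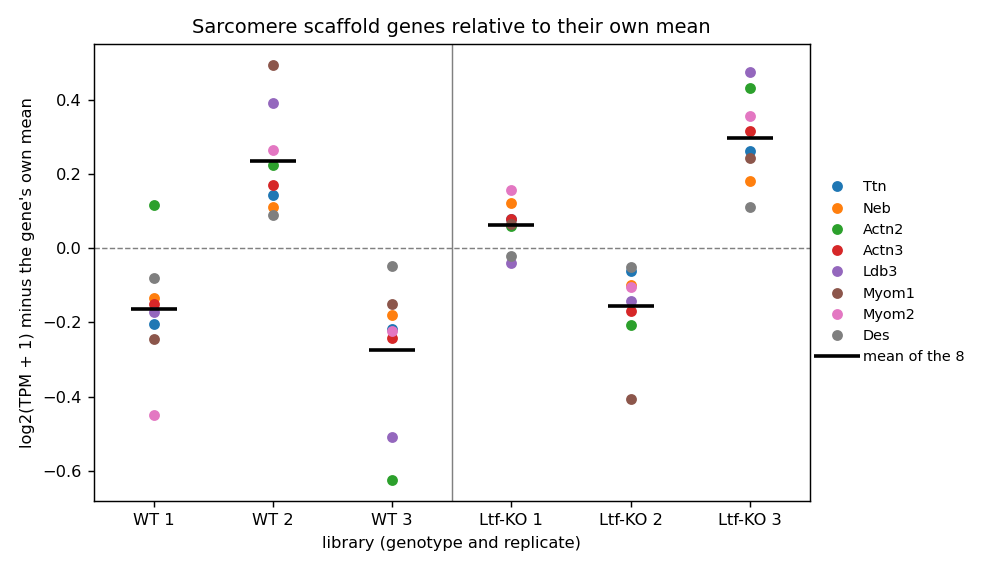
Each of the 8 tested genes in each library, as log2(TPM + 1) minus the mean of that gene over the 6 libraries, with the mean of the 8 as a black bar. WT replicate 2 and Ltf-KO replicate 3 lie above 0 for all 8 genes, WT replicate 3 and Ltf-KO replicate 2 below 0 for all 8, and WT replicate 1 lies below 0 for all but Actn2.

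*Actn2*, *Ldb3* and *Myom1* swung most around their means, with SDs of 0.37, 0.37 and 0.33 on the log2 scale, and *Des* least, with 0.08. *Actn3* followed the mean of the 8 most closely, at a root-mean-square distance of 0.03 on the log2 scale, and *Actn2* least, at 0.19.

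The genes outside the 9 whose pattern over the 6 libraries lay nearest to that mean included several of muscle. By the root-mean-square distance between centred log2(TPM + 1) values, the 8 nearest of the tested genes were *Casq1*, *Mybph*, *Cacng1*, *Hspb8*, *Kcnn3*, *Myl6b*, *Trim72* and *Myom3*, at distances of 0.0507 to 0.0614, where a gene without any change would lie at 0.214 and 31.7% of the other tested genes lay nearer than that. *Casq1* encodes the calcium store protein of the sarcoplasmic reticulum, *Cacng1* a subunit of the muscle calcium channel, *Mybph* a thick filament protein, *Trim72* a membrane repair protein, *Kcnn3* a calcium-activated potassium channel known mainly from neurons and *Hspb8* a chaperone of the Z-disc. *Myom3*, the third myomesin gene, was at 22.9, 29.1 and 20.02 TPM in WT and at 23.4, 22.4 and 30.8 TPM in *Ltf*-KO. *Mybph* was at 58.5, 71.1 and 53.3 TPM in WT and at 64.6, 57.7 and 82.4 TPM in *Ltf*-KO. In both, as in 5 of the 9 genes, WT replicate 3 was lowest and *Ltf*-KO replicate 3 highest. This likeness is a description over 6 libraries, and the distances of the 8 genes carry no test.

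Ratios between genes of the same library compare their balance apart from the shared rise and fall. Of 7 ratios computed, 1 did not overlap between genotypes: *Myom2* to *Myom1* was 1.81, 1.72 and 1.99 in WT and 2.22, 2.68 and 2.23 in *Ltf*-KO. Its mean was 1.84 ± 0.137 in WT and 2.38 ± 0.262 in *Ltf*-KO (SD, n = 3 each, two-sided exact permutation p = 0.1, the smallest that 3 libraries against 3 allow, Benjamini-Hochberg adjusted p = 0.7 over the 7 ratios). The difference of 0.539 ranged from 0.387 to 0.617 with any 1 library left out. *Actn3* to *Actn2* was 2.58, 2.99 and 4.23 in WT and 3.17, 3.24 and 2.85 in *Ltf*-KO, so WT replicate 3 stood above the other 5 libraries. *Neb* to *Ttn* was the steadiest, between 2.38 and 2.66 in all 6 libraries. The muscle forms *Actn2* and *Actn3* gave 6.70% to 9.81% of the summed TPM of the 4 α-actinin genes in WT and 7.23% to 10.95% in *Ltf*-KO, and the remainder came from the widely expressed *Actn1*, at 233 to 264 TPM, and *Actn4*, at 361 to 380 TPM. *Des* stood at 0.0691 to 0.0822 times the level of *Vim*, the filament gene of undifferentiated cells, in WT and at 0.0722 to 0.0872 times in *Ltf*-KO. The smallest of the exact permutation p-values of the other 6 ratios was 0.2, for *Des* to *Ttn*.

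**Figure D4:**
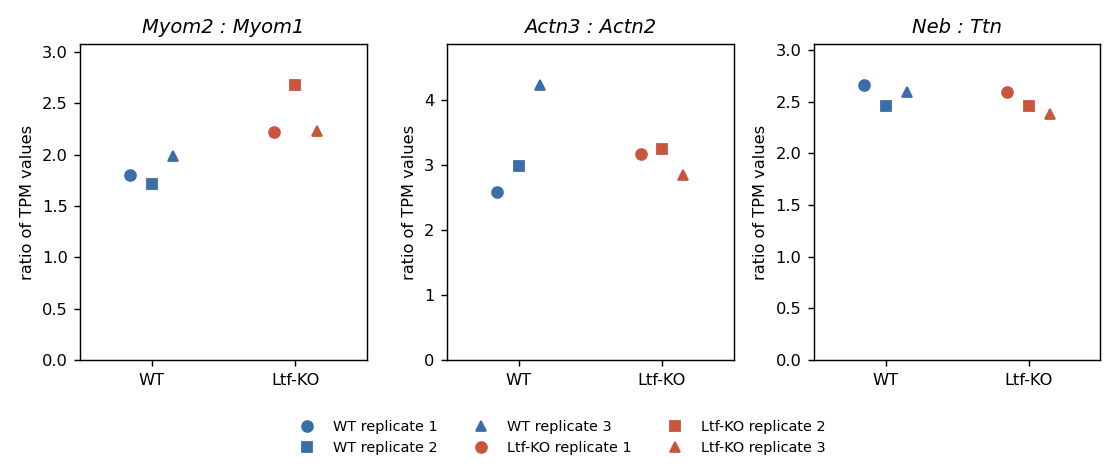
Ratios of TPM values within each library for Myom2 to Myom1, Actn3 to Actn2 and Neb to Ttn, on linear axes from 0, with WT in blue, Ltf-KO in red and replicates 1 to 3 as circle, square and triangle. Myom2 to Myom1 lies between 1.72 and 1.99 in WT and between 2.22 and 2.68 in Ltf-KO, and the other pairs overlap.

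Of 23 further genes of the Z-disc, 21 were tested and 19 had a difference above 0, where 55.7% of all genes tested were above 0. The median was 0.06, and 0 had an adjusted p under 0.05. Without *Ltf*-KO replicate 3 the count was 14 of 21 with a median of 0.027, without WT replicate 3 it was 14 of 21 with a median of 0.042, and the median was 0.13 without *Ltf*-KO replicate 2. *Pdlim7*, a PDZ and LIM protein that binds actin structures, was at 140.3, 138 and 142 TPM in WT and at 154, 152 and 154 TPM in *Ltf*-KO, a log2 difference of 0.13 (SE 0.03, limma adjusted p = 0.999). It was the 1 gene of the list at an unadjusted p under 0.05, where 3.78% of all genes tested were. Its genotypes did not overlap, as for 2 of the 21 tested genes of the list and 8.46% of all genes tested. The most abundant of the list were *Cryab*, a small heat shock protein that protects desmin, at 492 to 584 TPM, *Capzb*, a cap of thin filament ends, at 345 to 380 TPM, and *Synpo2l* at 139 to 157 TPM. The calsarcin paralogs of *Myoz1* were low, with *Myoz2* at 1.37 to 3.56 TPM and *Myoz3* at 0 to 0.05 TPM, and *Nebl*, the cardiac relative of *Neb*, was at 1.22 to 5.10 TPM.

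Of 16 M-band and titin-binding genes, 14 were tested and 11 had a difference above 0, where 55.7% of all genes tested did. Their median was 0.06, with 0 at an unadjusted or adjusted p under 0.05. The median was 0.011 with 8 of 14 above 0 without *Ltf*-KO replicate 3, stood at 0.036 without WT replicate 3, and was 0.16 without WT replicate 2 and also without *Ltf*-KO replicate 2. *Ankrd1*, a titin-binding stress-response protein, was the highest at 1003 to 1143 TPM and had a log2 difference of -0.05. *Sqstm1*, an autophagy receptor that meets titin at the M-band, was at 421 to 546 TPM. Both were lowest in *Ltf*-KO replicate 3, the library highest for most of the scaffold genes.

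Of 19 genes of sarcomere assembly and thin filament length, 18 were tested and 13 had a difference above 0, with a median of 0.10. Over all genes tested, 55.7% were above 0. Without *Ltf*-KO replicate 3 the median was 0.0071 with 11 of 18 above 0, and it was 0.048 without WT replicate 3, 0.18 without WT replicate 2, and 0.17 when *Ltf*-KO replicate 2 was left out. *Xirp2*, an actin-binding protein of forming myofibrils, was at 2.75, 2.66 and 2.52 TPM in WT and at 3.51, 3.47 and 3.67 TPM in *Ltf*-KO, a log2 difference of 0.32 (SE 0.09, limma adjusted p = 0.999). It was named as the 1 gene of the list at an unadjusted p under 0.05, where 3.78% of all genes tested were. Its genotypes did not overlap, as for 2 of the 18 tested genes of the list and 8.46% of all genes tested. The heat shock proteins *Hsp90aa1*, at 596 to 629 TPM, *Hspb1*, at 285 to 405 TPM, and *Hspb8*, at 99.4 to 151 TPM, were the most abundant of the list, and their genotypes overlapped.

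Of 14 genes of intermediate filaments and the costamere, which links Z-discs to the membrane, 12 were tested, 9 had a difference above 0 and the median was 0.04, or 0.078 without *Ltf*-KO replicate 3. For this list and those that follow, 55.7% of all genes tested were above 0. *Vim* was at 5992 to 6463 TPM in WT and 5859 to 6309 TPM in *Ltf*-KO. Of 7 genes of non-muscle α-actinins and related actin cross-linkers, all were tested and had a difference above 0, with a median of 0.04. This count was 3 of 7 and the median -0.0074 without *Ltf*-KO replicate 2, and the count was 5 of 7 after median-of-ratios scaling, without WT replicate 1 and without WT replicate 2. *Sptan1*, an α-spectrin, was at 122, 128 and 127 TPM in WT and at 136, 144 and 149 TPM in *Ltf*-KO, a log2 difference of 0.18 (SE 0.05, limma adjusted p = 0.999). It was named as the 1 gene of these 7 at an unadjusted p under 0.05, where 3.78% of all genes tested were. Its genotypes did not overlap, as for 2 of the 7 and 8.46% of all genes tested. Of 12 splicing factors that act on titin and other sarcomere transcripts, 8 had a difference above 0, with a median of 0.05 and 0 at an unadjusted p under 0.05. That median was 0.011 without *Ltf*-KO replicate 3, 0.020 without *Ltf*-KO replicate 1, 0.023 without WT replicate 3 and 0.074 without WT replicate 2.

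Of 19 contractile and fusion genes, 18 were tested and 18 had a difference above 0, where 55.7% of all genes tested did. Their median was 0.15, against 0.011 over all genes tested, but without *Ltf*-KO replicate 3 these were 5 of 18 and -0.02. Without WT replicate 3 these were 11 of 18 and 0.04, and the median was 0.29 without WT replicate 2 and also without *Ltf*-KO replicate 2. *Mb*, which encodes the oxygen store myoglobin, was the 1 gene at an unadjusted p under 0.05, with a log2 difference of 0.30 (SE 0.11, limma adjusted p = 0.999). Over all genes tested, 3.78% had an unadjusted p under 0.05. *Acta1*, skeletal α-actin, was at 844, 1065 and 868 TPM in WT and at 933, 909 and 1243 TPM in *Ltf*-KO, and *Myog* at 319, 410.3 and 293 TPM and at 360.4, 266 and 508 TPM. Of 14 myogenic transcription factors, 11 had a difference above 0, with a median of 0.05 and 0 at an unadjusted p under 0.05. The median was 0.015 without WT replicate 3, 0.032 without WT replicate 1 and 0.097 without WT replicate 2.

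Markers of other cells and of the cell cycle are given beside these counts, and their part in the results was not tested. Of 8 cell cycle genes, 1 had a difference above 0 and the median was -0.03, with 0 at an unadjusted p under 0.05. With no filter, and also after median-of-ratios scaling, 1 of the 8 was lower at an unadjusted limma p under 0.05. Lower in *Ltf*-KO with genotypes that did not overlap were 3 of the 8 (*Pcna*, *Mcm2* and *Mcm5*), against 3.73% of all genes tested. Without WT replicate 1, and likewise without *Ltf*-KO replicate 2, 4 of the 8 were above 0. All 6 tested fibroblast markers of 8 listed had a difference above 0, where 55.7% of all genes tested did. Their median was 0.25, with 0 at an unadjusted p under 0.05. The count was 5 of 6 without WT replicate 1, without *Ltf*-KO replicate 1 and without *Ltf*-KO replicate 3, the last with 1 gene higher at an unadjusted limma p under 0.05. Only 1 of them averaged 10 TPM or more. The 8 summed to 105 to 109.8 TPM in WT and 104 to 138 TPM in *Ltf*-KO, with *Ltf*-KO replicate 1 highest and replicate 3 lowest. Most of this sum came from *Col3a1* at 88.0 to 118 TPM. *Col1a1* was at 3.73 to 9.32 TPM, *Dcn* at 2.04 to 6.83 TPM and *Pdgfra* at 1.0 to 1.9 TPM, each highest in *Ltf*-KO replicate 2. Of 11 smooth muscle and pericyte markers, 6 were tested and 5 had a difference above 0, and *Pdgfrb* and *Tagln* had an unadjusted p under 0.05 (limma, adjusted p = 0.999 each). Both were higher in *Ltf*-KO, a call shared by 2.01% of the 12956 genes in the fit. The count of 2 rested on single libraries. It was 0 without WT replicate 1 or WT replicate 2, and 1 without WT replicate 3 or *Ltf*-KO replicate 1. Leaving out *Ltf*-KO replicate 3 gave 3 higher markers, and leaving out *Ltf*-KO replicate 2 gave 2 higher and 1 lower. The 11 markers summed to 562 to 648 TPM in WT and 641 to 755 TPM in *Ltf*-KO, mostly from *Acta2* at 409 to 593 TPM. Of the other 10, *Tagln* was at 59.5 to 83.8 TPM, *Smtn* at 34.5 to 43.7 TPM, *Cspg4* at 30.8 to 41.1 TPM, *Mcam* at 14.97 to 18.98 TPM and *Pdgfrb* at 3.73 to 7.51 TPM. *Cnn1* reached 2.89 TPM, and *Myh11*, *Lmod1*, *Rgs5* and *Kcnj8* were at 0.62 TPM or less.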

How the data were processed

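RNA of SCs grown for 4 days was measured in 3 WT and 3 *Ltf*-KO libraries, grouped by the sample labels. The authors deposited 1 table of TPM values with 2 decimals. It was made and normalized by the sequencing provider's protocol, and the submitters' notes name the build GRCm39. The aligner, counter, annotation and strand setting are not given in the sources used here. The unit was taken from the values, which sum to 993650 to 994356 per library. Since TPM keeps no depth, precision was judged from replicates. The reference used for transcript lengths and overlaps was GENCODE M21, and upstream windows came from RefSeq, both of GRCm38, so no gene coordinates of the deposited table are given.

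*Ltf*-KO was compared with WT by limma 3.58.1 in R 4.3.3 with a variance trend, on log2(TPM + 1) with a pseudocount of 1, for the 12956 genes averaging 1 TPM or more. This scale understates the change of low genes. Tests were two-sided, p-values were Benjamini-Hochberg adjusted and the threshold was 0.05. The fit was also run on simulated data in which genes varied independently of each other. That run cannot show how the fit behaves for genes that move together, as these did. The 7 ratios were given two-sided p-values from all 10 exact permutation splits of 3 against 3 libraries. Alternatives were a pseudocount of 0.1, no filter, a filter at a mean of 10 TPM, the replicate number as a block, median-of-ratios scaling and each library left out.

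The 9 genes, the further lists and the tests were chosen with earlier results of these data known. Further genes named are, per list, up to 4 at an unadjusted p under 0.05, the 3 highest by mean TPM and paralogs of the 9, and the 8 nearest in pattern. Single markers beyond these, such as *Pax7*, *Mcm2*, *Mcm5*, the cardiomyocyte and smooth muscle genes and *Myl12a*, were named after their values were seen.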

Additional observations from a re-analysis of the deposited data

How the results depend on the processing

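None of the 8 tested genes had an adjusted p under 0.05 from limma under any of the 11 alternatives run, though *Myom1* has no value when the filter is at 10 TPM, and *Myoz1* was tested with no filter alone (limma adjusted p = 0.957). The log2 difference, by contrast, rested on single libraries. With 1 library left out it ranged from 0.10 to 0.30 for *Ttn*, 0.08 to 0.22 for *Neb*, 0.03 to 0.27 for *Actn3*, 0.12 to 0.47 for *Myom2*, -0.076 to 0.35 for *Actn2* (below 0 without WT replicate 3), -0.012 to 0.44 for *Ldb3* (without WT replicate 3), -0.20 to 0.17 for *Myom1* (above 0 without WT replicate 2 or *Ltf*-KO replicate 2), -0.024 to 0.077 for *Des* (below 0 without WT replicate 1 or *Ltf*-KO replicate 3) and -0.61 to 0.14 for *Myoz1*. *Ttn* and *Myom2* had an unadjusted limma p under 0.05 without WT replicate 2 (0.0275 and 0.0274). The number of the 9 genes whose genotypes did not overlap was 0, and ranged from 0 to 4 with 1 library left out (4 without WT replicate 2, where 17.3% of all genes tested did not overlap, and 1 each without WT replicate 1 and *Ltf*-KO replicate 2). The median over the 8 was 0.02 when *Ltf*-KO replicate 3 was left out and 0.29 when WT replicate 2 was. The cause was not tested.

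The number of all genes at an adjusted p under 0.05 was 0, and ranged from 0 to 6 with 1 library left out (6 without WT replicate 2). At an unadjusted p it was 490, and became 890 of 26553 genes with no filter and 281 of 8072 genes with the filter at 10 TPM. The labels do not say whether same-numbered libraries of the 2 genotypes were handled together. Their deviations from the genotype means correlated at -0.041, -0.058 and -0.088 across genes. Such values cannot show or exclude a pairing, because the deviations of 3 libraries from their own mean are not independent. With the replicate block, 0 genes had an adjusted and 380 an unadjusted p under 0.05, and the block changed no call on the 8 genes (limma adjusted p = 0.9997 for *Ttn*). The depth behind each TPM value is unknown, so counting error could not be separated from other spread.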

Other observations

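The annotation of the deposited table gave a wider view of the same structures, chosen after the data were seen. The GO term Z disc was carried by 8 of the 9 genes (all but *Ttn*) and by 100 tested genes, of which 79 had a log2 difference above 0, with a median of 0.06. Of these 100, 4 had an unadjusted limma p under 0.05 with a difference above 0 and 2 with a difference below 0, and 0 had an adjusted p under 0.05. Over all genes tested, 2.01% were higher and 1.78% lower at an unadjusted p under 0.05. The 31 tested genes of the term sarcomere organization had a median of 0.09, with 28 above 0 and 0 at an unadjusted p under 0.05. Of the other terms counted, 17 of 21 tested genes of M band, 24 of 35 of sarcomere, 26 of 33 of muscle contraction (1 lower at an unadjusted p under 0.05) and 16 of 20 of structural constituent of muscle were above 0, where 55.7% of all genes tested were. These terms hold many of the listed genes, so they are no separate evidence. Counts with a library left out are not given for the terms. For the list of further Z-disc genes above, the count went from 19 to 14 of 21 without *Ltf*-KO replicate 3, and likewise without WT replicate 3.

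Apart from *Myl12a*, the measured genes annotated on the opposite strand of the 9 were at 0.34 TPM or less. *Gm13938*, antisense to *Ttn*, was listed at 0 in all 6 libraries. *Gm13522*, antisense to *Neb*, reached 0.34 TPM and *Gm15179*, antisense to *Des*, 0.21 TPM. Since the strand setting of the counting is not given in the sources used here, reads of such pairs cannot be told apart.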
